A study of Mus musculus with 38 samples.

Results

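Zbtb7b, Adamtsl4, Pkn3, Prss36, Tnpo2 and Ccdc71 are 6 mouse genes at which the signal of the nuclear membrane protein LAP2B was much higher in naive QKO embryonic stem cells, which lack lamins and the lamin B receptor, than in wild-type cells. They were picked by name for large LAP2B rises in TKO or QKO cells, out of 78202 genes in the tables. All 6 were among the 70381 genes left after the lowest values had been removed. Because the LAP2B rise chose them, their LAP2B values in TKO, QKO and WT libraries are given as a description and without a test. Their level in the other antibodies, their lengths and their change between stages in LBRKO cells were not part of the choice. Their neighbours were taken by position, but the QKO and WT values of the neighbours come from libraries that the choice used.

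LAP2B, the beta form of lamina-associated polypeptide 2, is an inner nuclear membrane protein that binds lamins and chromatin. Genomic regions held at the nuclear periphery, called lamina-associated domains, are usually poor in genes, AT-rich and weakly transcribed, while gene-rich and GC-rich regions usually lie in the nuclear interior. Lamins, and a membrane protein that binds both B-type lamin and chromatin (LBR), are the best known tethers of peripheral chromatin. The 6 genes share no pathway. Zbtb7b encodes ThPOK, a zinc finger transcription factor known for directing T cells to the CD4 helper lineage, and Pkn3 encodes a protein kinase of the PKN family that is controlled by small GTPases. Adamtsl4 encodes a secreted ADAMTS-like glycoprotein of the extracellular matrix that binds fibrillin microfibrils. Prss36 encodes a serine protease with several protease domains. Tnpo2 encodes a transportin, an import receptor that carries RNA-binding proteins into the nucleus, and Ccdc71 encodes a coiled-coil domain protein of poorly known function.

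LAP2B was mapped by CUT&RUN (an antibody brings a nuclease to its target, and the DNA cut loose there is sequenced) in naive mouse embryonic stem (mES) cells and in epiblast-like cells (EpiLCs) made from them. Per the study, the antibody also binds the nucleoplasmic alpha form of the protein, though it detects the membrane form far more readily. The 4 genotypes were WT, LBRKO (without LBR), TKO (a triple knockout of the lamin genes) and QKO (TKO cells that had also lost LBR), with 3 libraries of 200000 cells for each genotype and stage. Naive cells were grown in 2i and LIF, and EpiLCs were induced with FGF and activin A, and both were collected at 48 h. The study did not use LAP2B to stand for lamina-associated domains in EpiLCs, because WT signal there also fell outside those domains. It also reports that QKO cells survived poorly as EpiLCs. The part of either in the EpiLC values was not tested. LMNB1 (lamin B1) and the background antibody IGG were mapped in WT cells at both stages, again with 3 libraries each. The WT and TKO lines came from littermate embryos, LBRKO cells were made from the WT line, and QKO cells were 1 surviving clone of the TKO line, so the QKO libraries cannot tell genotype from clone. WT and TKO were likewise 1 line each, so the TKO libraries cannot tell genotype from line. The study made several LBRKO clones, and its methods do not say which of them gave these libraries. Per the study's methods, the TKO line carried an extra chromosome 8, where Tnpo2 lies, and so did 1 population of the WT line. CUT&RUN reads DNA, so cell-type marker genes could not be used to check the labelled stages. Whether libraries of a group came from separate cultures is not given in the sources used here, and p-values then measure only the spread between these libraries.

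The genes lie on 5 chromosomes of the GRCm39 assembly. Zbtb7b (ENSMUSG00000028042) spans chromosome 3, 89284942 to 89302083, on the minus strand, and Adamtsl4 (ENSMUSG00000015850) spans chromosome 3, 95583511 to 95595228, on the minus strand. Pkn3 (ENSMUSG00000026785) spans chromosome 2, 29967696 to 29981035, on the plus strand. Prss36 (ENSMUSG00000070371) spans chromosome 7, 127531810 to 127545903, on the minus strand, and Tnpo2 (ENSMUSG00000031691) spans chromosome 8, 85763417 to 85784214, on the plus strand. Ccdc71 (ENSMUSG00000049305) spans chromosome 9, 108337726 to 108344801, on the plus strand. The values cover the whole gene body, exons and introns together. The canonical transcripts have 3 exons in Zbtb7b, 18 in Adamtsl4, 22 in Pkn3, 15 in Prss36, 25 in Tnpo2 and 2 in Ccdc71.

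The genes were of ordinary length and rich in GC. Their lengths ran from 7.08 kb (Ccdc71) to 20.8 kb (Tnpo2), at the 24.5th to 52.7th percentile of 20853 protein-coding genes, whose median was 18806 bases. Their GC content ran from 50.1% (Tnpo2) to 58.1% (Zbtb7b), against a median of 45.4% in protein-coding genes, which put them at the 75.3rd to 98.0th percentile. They held 17.8 to 24.5 CG dinucleotides per kb, against a median of 12.1. Start sites differed more than gene bodies did. In the 300 bases around the canonical start site (250 before and 50 after), Tnpo2 held 32 CG dinucleotides, Adamtsl4 24, Ccdc71 13, Pkn3 8, Zbtb7b 6 and Prss36 5, against a median of 11 over the same windows of all protein-coding genes.

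Start-site sequences are printed for 3 genes: Zbtb7b, which had the largest naive QKO change of the 6, and Tnpo2 and Prss36, which bracket the range of CG content. They are read 5′ to 3′ on the strand of the gene from GRCm39, with CG dinucleotides in capitals, at chr3:89300620-89300919 (Zbtb7b, minus strand), chr8:85763525-85763824 (Tnpo2, plus strand) and chr7:127545854-127546153 (Prss36, minus strand).
Zbtb7b: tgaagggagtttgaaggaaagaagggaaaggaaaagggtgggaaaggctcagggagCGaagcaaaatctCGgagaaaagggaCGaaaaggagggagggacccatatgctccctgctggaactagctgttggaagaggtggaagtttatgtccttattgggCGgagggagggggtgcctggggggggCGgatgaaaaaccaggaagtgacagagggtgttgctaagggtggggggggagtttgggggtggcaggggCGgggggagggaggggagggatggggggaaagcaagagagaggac
Tnpo2: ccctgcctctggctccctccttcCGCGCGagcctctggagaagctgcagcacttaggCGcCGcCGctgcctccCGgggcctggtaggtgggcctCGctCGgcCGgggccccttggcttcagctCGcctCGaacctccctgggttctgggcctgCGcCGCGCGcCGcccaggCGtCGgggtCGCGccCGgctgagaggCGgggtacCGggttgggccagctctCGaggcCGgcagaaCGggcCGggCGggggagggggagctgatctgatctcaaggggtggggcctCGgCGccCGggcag
Prss36: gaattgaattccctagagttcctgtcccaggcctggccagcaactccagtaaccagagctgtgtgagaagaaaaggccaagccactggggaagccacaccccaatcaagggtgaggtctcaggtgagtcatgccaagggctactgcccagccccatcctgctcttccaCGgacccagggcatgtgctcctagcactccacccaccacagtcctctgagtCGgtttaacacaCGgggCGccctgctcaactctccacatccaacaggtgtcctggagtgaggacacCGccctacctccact

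Capitals are spread through the Tnpo2 window, whose GC content was 75.7%, and are sparse in the Zbtb7b (58.3% GC) and Prss36 (58.7% GC) windows. The hexamer GGGCGG, the core of the GC box bound by Sp-family factors, was searched on both strands in the windows of all 6 genes. It occurred in each, with 3 matches in Zbtb7b, 4 in Adamtsl4, 2 in Tnpo2 and 1 each in Pkn3, Prss36 and Ccdc71, and 43.5% of all protein-coding windows held at least 1 match. These matches describe letters only, since the tables give no signal within genes.

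Values are given on a pair of scales. The deposited value is a sum over the 1 kb bins that a gene touches, scaled to yeast spike-in DNA, and is called the spike-in scale. The relative scale divides each library by its own median gene, so that 1 is the level of the median gene, and it is used unless the other is named. Summed over genes, the reads came to 12608484 to 41198406 per LAP2B library, 29522895 to 37189077 per LMNB1 library and 12028659 to 45689196 per IGG library. Reads in a bin that several genes touch count in each of them, so these sums are not library sizes. The 6 genes had between 38 (Ccdc71) and 3897 (Zbtb7b) reads in a library. On the spike-in scale the median gene was lower in the lamin mutants than in WT. Its log2 shift was -1.24 in naive QKO, -0.63 in naive TKO, -0.88 in EpiLC QKO and -0.27 in EpiLC TKO. The LBRKO median shifted by 0.18 in naive cells and 0.04 in EpiLCs. The study reports that LAP2B CUT&RUN DNA fell significantly against spike-in DNA in naive TKO and QKO cells. It reads this as a loss of LAP2B contacts across the genome, which the relative scale takes out. Log2 changes and folds were taken after adding 0.1 of the median to each value, which understates changes at low values. Changes on the spike-in scale therefore differ from relative changes by about these amounts.

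In naive mES cells LAP2B at Zbtb7b, the T-lineage transcription factor gene, was 2.94, 2.39 and 3.19 times the median gene in the 3 WT libraries. LBRKO libraries stood at 4.79, 7.13 and 5.60, TKO libraries at 9.76, 7.78 and 10.2, and QKO libraries at 43.3, 28.7 and 41.6. Every mutant library lay above every WT library, and the 3 QKO libraries lay far above all others. The group means, 2.84 ± 0.41 in WT and 37.9 ± 8.00 in QKO (SD, n = 3 each), corresponded to a 12.8-fold change (log2 change 3.68, SE 0.15). On the spike-in scale the log2 change was 2.44. In EpiLCs the same gene read 5.03, 4.38 and 5.57 in WT and 11.6, 10.9 and 9.02 in QKO, a log2 change of 1.05.

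Pkn3, the GTPase-controlled kinase gene, had naive WT values of 2.07, 1.23 and 1.19 and LBRKO values of 1.56, 2.13 and 1.92. The TKO libraries stood at 6.32, 5.00 and 5.42 and the QKO libraries at 19.0, 13.7 and 16.4. It was the 1 gene of the 6 whose naive LBRKO and WT libraries overlapped. The log2 changes from WT were 0.33 for LBRKO, 1.87 for TKO and 3.396 for QKO (SE 0.16 each). In EpiLCs Pkn3 read 3.45, 3.62 and 3.88 in WT and 3.08, 2.68 and 3.21 in LBRKO, and the QKO libraries read 7.61, 7.96 and 7.05. All 3 EpiLC LBRKO libraries thus lay below WT, as they did at 17.9% of all genes tested. They overlapped with WT on the spike-in scale, at 8.37, 7.31 and 9.65 against 10.5, 7.68 and 12.4, so that 0 of the 6 genes lay wholly below WT there, against 9.56% of all genes tested.

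At Adamtsl4, the fibrillin-binding matrix gene, naive WT libraries read 1.65, 1.86 and 1.58, LBRKO libraries 3.46, 4.59 and 5.11, TKO libraries 7.26, 7.88 and 6.21, and QKO libraries 27.2, 17.5 and 22.0. On this relative scale the 4 genotypes did not overlap with one another, and each step (WT, LBRKO, TKO, QKO) was higher than the one before. By spike-in values LBRKO and TKO overlapped, at means of 12.5 and 11.6, and the lowest QKO library (16.2) lay under the highest LBRKO (16.7) and TKO (16.5) libraries. On the relative scale the log2 changes from WT were 1.30 for LBRKO, 2.00 for TKO and 3.62 for QKO (SE 0.15 each). In EpiLCs the steps were smaller, with 3.07, 3.43 and 3.75 in WT, 4.95, 5.37 and 4.56 in TKO and 8.51, 8.38 and 6.32 in QKO.

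Prss36, the serine protease gene, differed least between LBRKO and TKO in naive cells. WT libraries read 2.21, 1.80 and 3.37, LBRKO libraries 3.84, 4.62 and 4.83, TKO libraries 4.93, 4.10 and 4.57, and QKO libraries 21.5, 15.5 and 19.5. LBRKO and TKO overlapped, at log2 changes from WT of 0.87 and 0.90, and QKO stood apart at 2.92 (SE 0.16 each). With spike-in scaling QKO overlapped with LBRKO, while all 3 LBRKO libraries lay above TKO. In EpiLCs it read 2.70, 3.57 and 3.54 in WT and 9.80, 11.3 and 8.91 in QKO, a log2 change of 1.59 that was the largest among the 6 genes at that stage.

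At Tnpo2, the nuclear import receptor gene, naive WT libraries read 3.81, 3.48 and 4.65 and LBRKO libraries 5.65, 6.03 and 6.61. TKO libraries read 10.5, 9.63 and 9.69, and QKO libraries 42.6, 27.6 and 37.6. No genotype overlapped with another on the relative scale (LBRKO and TKO did on the spike-in scale), and the QKO mean of 35.9 ± 7.62 was 8.75-fold above WT (log2 change 3.13, SE 0.13). By spike-in values this log2 change was 1.90. In EpiLCs TKO read 8.62, 9.63 and 9.69 and QKO 16.5, 16.9 and 14.6, against 5.1, 5.405 and 6.09 in WT. Tnpo2 lies on the chromosome that was trisomic in the TKO line. Over the 3527 tested genes of chromosome 8 the median log2 change was -0.03 in naive TKO and -0.16 in naive QKO, and 0.12 in both EpiLC contrasts. The part of the extra chromosome in the Tnpo2 values was not tested.

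Ccdc71, the coiled-coil gene, had the fewest reads and the smallest naive QKO change of the 6. Naive WT libraries read 1.69, 0.864 and 1.096 and LBRKO libraries 1.88, 2.36 and 2.10. TKO libraries read 2.29, 1.5 and 2.34, and QKO libraries 8.52, 5.84 and 6.12. TKO overlapped with WT there (log2 change 0.73, SE 0.20), and QKO did not (2.42). In EpiLCs the order differed: WT libraries stood at 1.02, 1.17 and 1.48, LBRKO libraries at 1.80, 2.01 and 2.05, TKO libraries at 2.87, 2.56 and 2.95, and QKO libraries at 3.38, 3.93 and 2.70. TKO and QKO overlapped in EpiLCs, at log2 changes from WT of 1.14 and 1.38, and Ccdc71 was the only one of the 6 whose LBRKO libraries lay above WT in EpiLCs on both scales (0.65 on the relative scale).

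**Figure D1:**
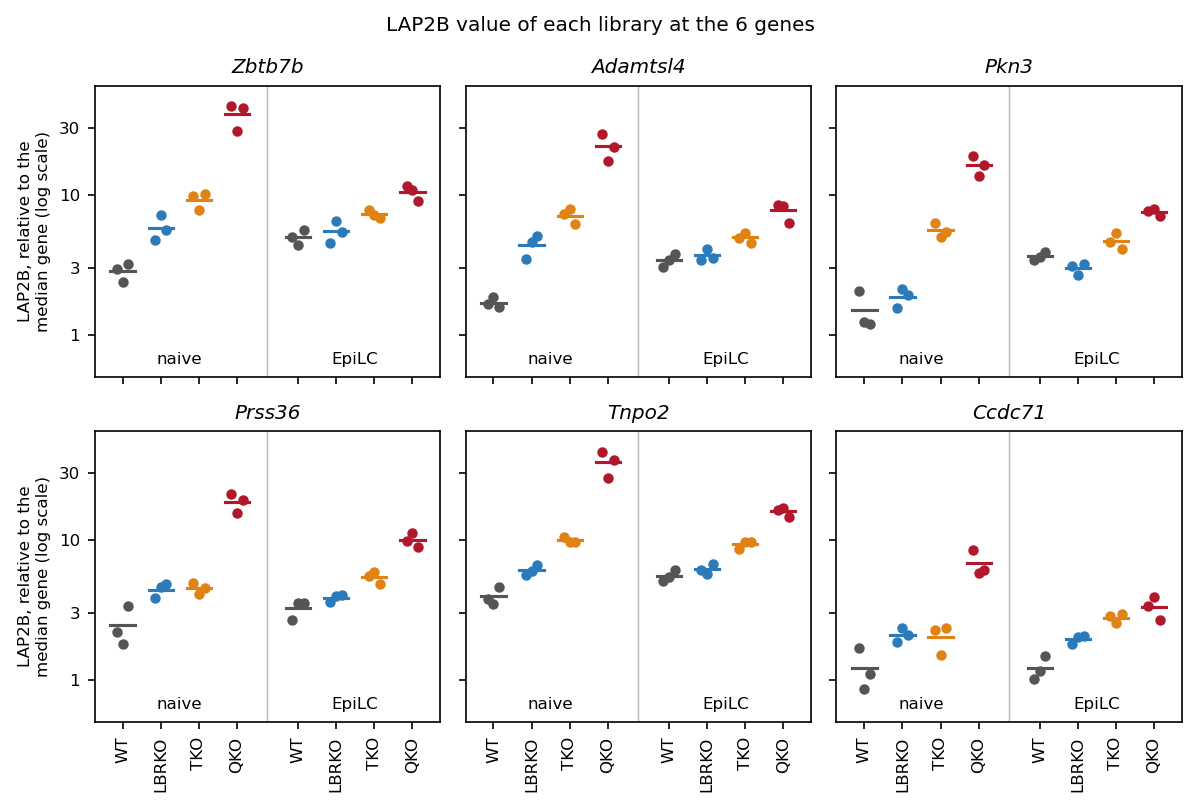
LAP2B value of every library at the 6 genes, relative to the library's median gene, on a log axis. Points are libraries (3 per genotype and stage) and bars are group means. On this scale QKO has the highest mean at both stages in each panel, and the gap between QKO and WT is wider in naive cells than in EpiLCs. By spike-in values, not drawn, TKO has a higher mean than QKO in EpiLCs at 3 of the 6 genes.

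On the relative scale the order of the 8 groups was alike at its ends and differed between them. The naive QKO group had the highest mean at each of the 6 genes and overlapped with no other group. The naive WT group had the lowest mean, and it overlapped with the next group up at Pkn3, Prss36 and Ccdc71. Between the ends, some neighbouring groups overlapped and others did not. EpiLC WT, EpiLC LBRKO and naive LBRKO overlapped in turn at Zbtb7b and Adamtsl4, EpiLC and naive TKO overlapped at Zbtb7b, Pkn3, Prss36 and Tnpo2, and naive TKO and EpiLC QKO overlapped at Zbtb7b and Adamtsl4. At Pkn3, by contrast, naive LBRKO, EpiLC LBRKO, EpiLC WT and EpiLC TKO followed each other without overlap, and EpiLC LBRKO and TKO did not overlap at Tnpo2. In naive LBRKO the 6 log2 changes from WT ran from 0.33 (Pkn3) to 1.30 (Adamtsl4) with a median of 0.83. In naive TKO they ran from 0.73 (Ccdc71) to 2.00 (Adamtsl4) with a median of 1.49, and in naive QKO from 2.42 (Ccdc71) to 3.68 (Zbtb7b) with a median of 3.26. The medians over all genes tested were 0.05, -0.11 and -0.22 in the same contrasts. In EpiLCs the median changes of the 6 genes were 0.14 (LBRKO), 0.63 (TKO) and 1.26 (QKO), and the all-gene medians were 0.01, 0.05 and 0.02.

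On the spike-in scale the changes in TKO and QKO were smaller and remained above 0 at all 6 genes. The median change was 1.01 in naive LBRKO (0.52 to 1.49), 0.87 in naive TKO (0.14 to 1.39), 2.04 in naive QKO (1.22 to 2.44), 0.37 in EpiLC TKO (0.08 to 0.89) and 0.41 in EpiLC QKO (0.16 to 0.72). In naive cells the LBRKO mean was then above the TKO mean at 5 of the 6 genes (all but Pkn3), where it was so at Ccdc71 alone on the relative scale, with groups that overlapped at Zbtb7b (16.5 and 14.6), Adamtsl4 and Tnpo2 (17.2 and 15.9) and did not at Prss36 (12.5 and 7.20) and Ccdc71 (5.93 and 3.17). In EpiLCs the TKO mean was above the QKO mean at Zbtb7b (17.4 and 15.7), Adamtsl4 (11.7 and 11.6) and Ccdc71 (6.57 and 4.96). Naive QKO still had the highest mean of the 8 groups at all 6 genes and naive WT the lowest, but naive QKO stayed clear of every other group at Zbtb7b alone. At Tnpo2, for example, its lowest library (25.5) lay under the highest of EpiLC TKO (27.6). At Zbtb7b the deposited values were 6.23, 6.85 and 7.57 in naive WT and 47.2, 26.5 and 44.8 in naive QKO. In EpiLCs, by contrast, they were 15.4, 9.30 and 17.8 in WT and 18.5, 15.6 and 13.0 in QKO, with overlapping groups. At Zbtb7b the naive QKO libraries thus lay apart from WT on both scales, and the EpiLC QKO libraries on the relative scale alone.

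Counts of genes whose mutant libraries all lay above WT followed the same pattern. In naive QKO this held for 6 of 6 on the relative and 6 of 6 on the spike-in scale, where 33.5% and 10.3% of all genes tested did so. In naive TKO it held for 5 (all but Ccdc71) and 4 (not Prss36 either), against 21.8% and 3.15%. In EpiLC TKO it held for 6 and 1 (Ccdc71), against 19.2% and 0.769%, and in EpiLC QKO for 6 and 2 (Prss36 and Tnpo2), against 25.3% and 0.377%. In naive LBRKO it held for 5 on both scales (all but Pkn3), against 28.9% and 29.4%, and in EpiLC LBRKO for 2 (Prss36 and Ccdc71) and 1 (Ccdc71), against 20.6% and 17.5%. These contrasts use the values that chose the genes or share their WT libraries, so nothing is read from the counts.

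No threshold came with the choice of genes, and none of them led every contrast. Among 20857 protein-coding genes the naive QKO change placed Zbtb7b at rank 3 and Adamtsl4 at rank 5. The next gene, Crabp2, had 3.62, as Adamtsl4 did, and Tlcd1 was first with 3.78. Pkn3 ranked 35, Tnpo2 149, Prss36 318 and Ccdc71 1300 in that contrast. In naive TKO Adamtsl4 ranked 7 (2.00), just before Reep2 (1.98), and Pkn3 ranked 20. In EpiLC TKO Ccdc71 ranked 3 (1.14), just before Drd4 (1.13), and in EpiLC QKO Prss36 ranked 11 (1.59) and Tnpo2 15 (1.52), with Naa10 (1.57) after the former. Zbtb7b, at rank 3 in naive QKO, was at rank 429 in EpiLC QKO, and Ccdc71, at rank 3 in EpiLC TKO, was at rank 4231 in naive TKO.

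A question that the IGG and LMNB1 libraries address is whether the 6 genes had an unusual background or lamina level before any lamin was lost. Deposited values grow with gene length, so levels were compared between genes per 1 kb bin and expressed as a percentile of all genes tested in the same library. In naive WT cells the 6 genes lay low for lamin B1, with a median at the 26.0th percentile (12.5 to 34.7), and low for LAP2B, with a median at the 28.7th (10.8 to 40.8). The lamin B1 position depended on the unit, since values not divided by bins put that median at the 58.7th percentile. They lay high for IGG, with a median at the 83.6th percentile (72.7 to 96.0). The IGG median also depended on the unit, and was lower undivided and lower still per kb, as given in the last section. In naive QKO cells their LAP2B percentile was 95.1 to 99.8. In EpiLCs of WT genotype the medians were 38.9 for LMNB1 (17.2 to 52.1, with a median of 63.6 undivided), 87.3 for IGG (64.8 to 93.8) and 70.2 for LAP2B (21.3 to 75.9).

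The IGG percentile was highest at Zbtb7b (96.0 ± 1.72 in naive cells, SD, n = 3) and lowest at Adamtsl4 in naive cells (72.7 ± 18.2) and at Ccdc71 in EpiLCs (64.8 ± 5.69). The LMNB1 percentile was lowest at Ccdc71 in naive cells (12.5 ± 6.40) and at Pkn3 in EpiLCs (17.2 ± 2.21). Per bin, relative to the median gene per bin, naive IGG read 1.26 to 1.90 and naive LMNB1 0.463 to 0.752 over the 6 genes. At each of the 6 genes the naive IGG percentile was thus higher than the naive LMNB1 percentile.

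**Figure D2:**
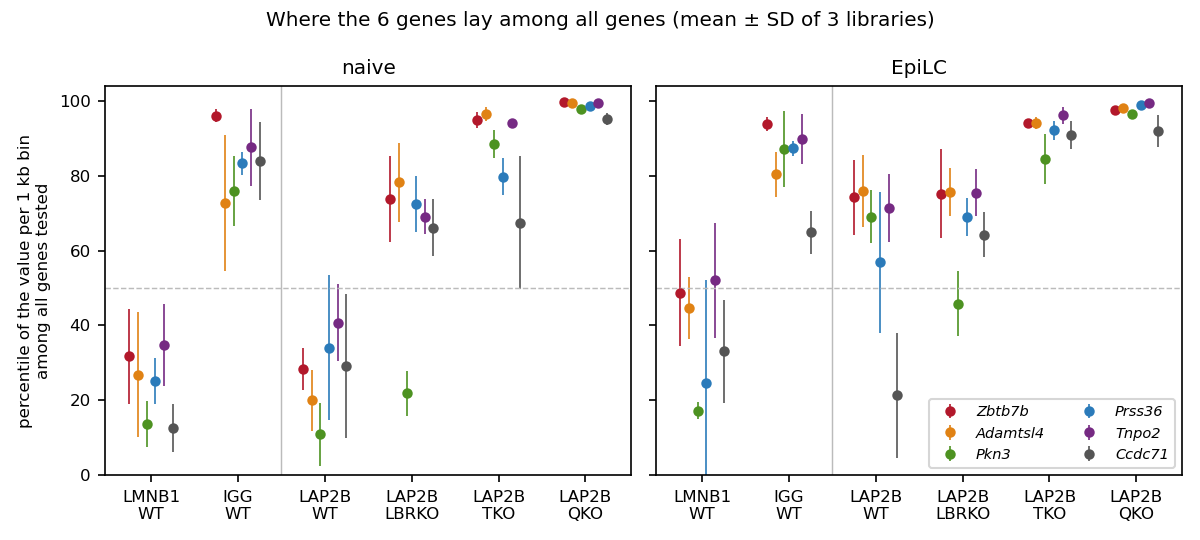
Percentile of the 6 genes among all genes tested, by value per 1 kb bin, for each antibody and genotype in naive cells (left) and EpiLCs (right). Points are means of 3 libraries with SD and the dashed line marks the median gene. Naive WT LMNB1 and LAP2B lie below the line and IGG above it, while QKO LAP2B lies above 91 at both stages.

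Set against the IGG level of WT cells at the same stage, LAP2B at these genes was under the background in WT cells on the relative scale and above it on the spike-in scale. In naive WT cells the relative LAP2B value was 0.379 (Zbtb7b) to 0.563 (Prss36) of the relative IGG value, and under 1 at all 6 genes. In naive LBRKO the ratio was 0.474 (Pkn3) to 1.28 (Adamtsl4), in TKO 0.850 (Ccdc71) to 2.08 (Adamtsl4), and in QKO 2.84 (Ccdc71) to 6.51 (Adamtsl4). In EpiLCs it was 0.649 to 0.908 in WT and 1.41 (Zbtb7b) to 2.09 (Prss36) in QKO. As log2 ratios, the median over all genes was 0.04 in naive WT and -0.18 in naive QKO. The medians of the 6 genes were -1.03 and 2.20. On the spike-in scale the ratio was above 1 at all 6 genes in each genotype and stage, at 1.71 (Pkn3) to 2.52 (Prss36) in naive WT, 5.53 (Ccdc71) to 13.0 (Adamtsl4) in naive QKO, 1.57 to 2.09 in EpiLC WT and 1.73 to 2.74 in EpiLC QKO. The median gene itself read 2.12 to 2.87 in naive WT LAP2B libraries and 0.41 to 0.62 in naive IGG libraries on that scale. The share of all genes with a spike-in ratio above 1 is not reported here, so nothing is read from that count. IGG was mapped in WT cells only, so the background of the mutants was not measured, and the tables of the antibodies were scaled separately.

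**Figure D3:**
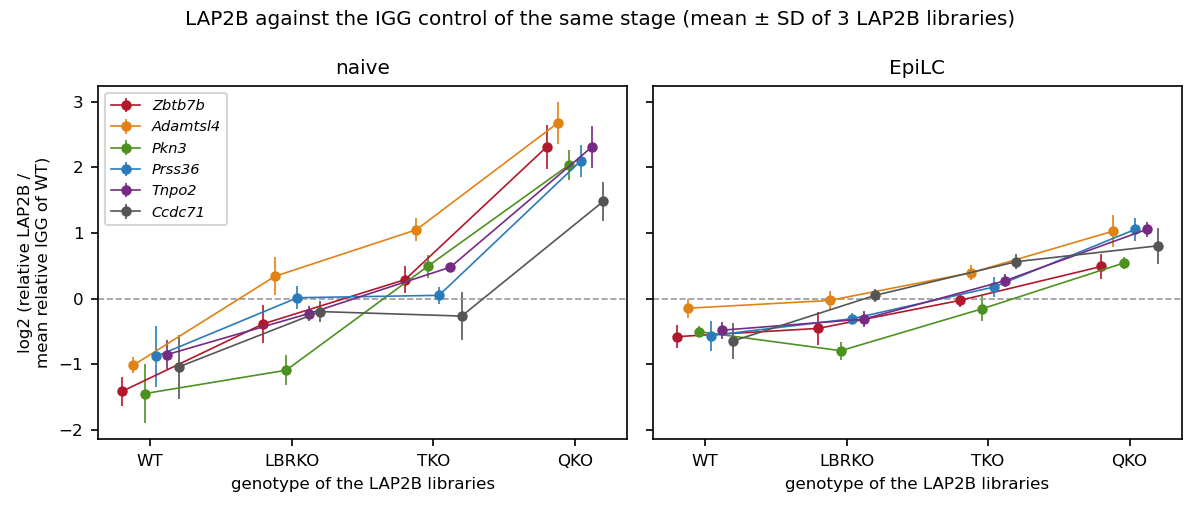
Log2 ratio of the relative LAP2B value to the mean relative IGG value of WT cells at the same stage, by genotype of the LAP2B libraries, for naive cells (left) and EpiLCs (right). Points are means of 3 LAP2B libraries with SD and the dashed line marks equality. On this relative scale all 6 genes lie below the line in WT and above it in QKO at both stages, whereas on the spike-in scale, not drawn, they lie above it in WT too.

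Over all genes the naive QKO change on the relative scale moved with the same features. When all genes tested were ranked by naive WT IGG per bin and parted into 10 groups of equal size, the median change went from -1.005 in the lowest group to 0.96 in the highest. The 6 genes lay in the highest 2 groups. Genes were ranked here by their percentile averaged over the 3 libraries, and few genes have a high average, so the average of 72.7 at Adamtsl4 falls in the second highest group. Ranked by naive WT LMNB1 per bin, the median went from 0.98 in the lowest group, through 1.03 in the next, to -1.43 in the highest, and the 6 genes lay in the lowest 4 groups. Ranked by GC content it went from -1.46 to 1.19, with the 6 genes in the highest 3 groups. Ranked by length it went neither up nor down throughout, with medians between -0.76 and 0.17, and the 6 genes lay in groups 6 to 8. Among the 14845 genes that touch 8 to 22 bins, as the 6 do, the median naive QKO change was 0.13, and Ccdc71 lay at the 94.4th percentile of them and Zbtb7b at the 99.98th. These medians hold for the relative scale alone. On the spike-in scale the median gene changed by -1.24 in naive QKO, with 7148 of 70381 genes called higher and 45964 lower. Medians of the groups on that scale are not reported here. The part of IGG level or GC content in the LAP2B gain was not tested.

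**Figure D4:**
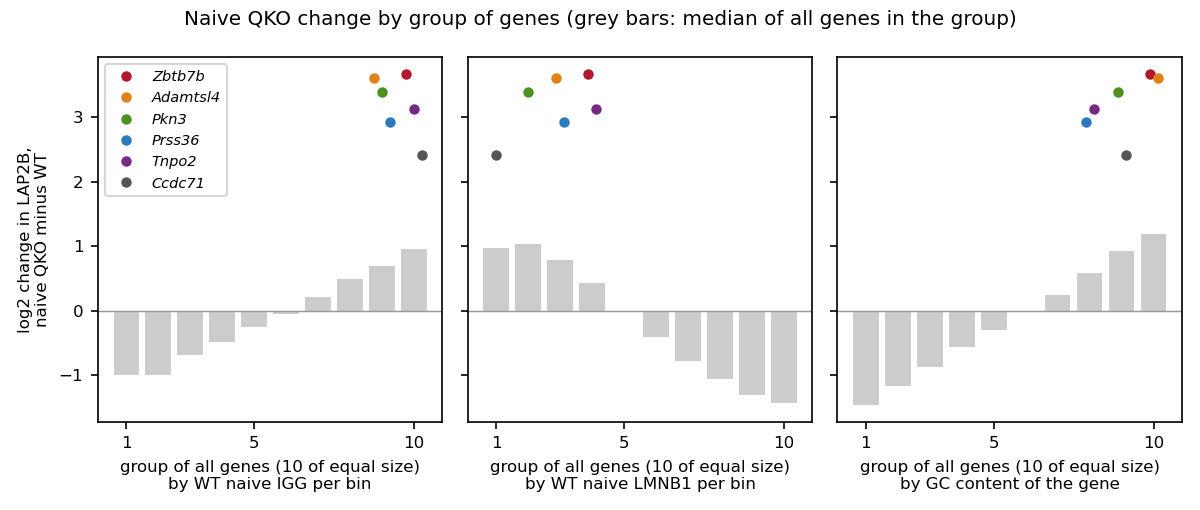
Naive QKO change in LAP2B (log2, relative scale) for all genes tested, parted into 10 groups of equal size after ranking by WT naive IGG per bin (left), WT naive LMNB1 per bin (middle) and GC content of the gene (right). Grey bars are the median of each group, starting at 0, and coloured points are the 6 genes. The bars rise with IGG and GC content and fall with LMNB1, and the 6 points lie between 2.42 and 3.68.

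Higher LAP2B in QKO cells extended over the surroundings of the 6 genes. Within 50 kb of them lay 47 other protein-coding genes that could be tested, and the naive QKO change was above 0 at all 47, with a median of 2.88. The share above 0 over all protein-coding genes was 55.6% and their median was 0.25. In EpiLC QKO it was also above 0 at all 47, with a median of 0.99, against 62.7% and 0.19. Spike-in values put it above 0 at 47 of the 47 in naive QKO (median 1.66), against 29.4% of protein-coding genes, and at 33 of the 47 in EpiLC QKO (median 0.16), against 6.74%. By distance between gene centres, the median naive QKO change was 2.87 over 34 genes closer than 50 kb, 2.66 over 78 genes at 50 to 200 kb and 2.3 over 111 genes at 200 to 500 kb, and on the relative scale it was above 0 at every one of these 223 genes. By spike-in values it was above 0 at 207 of them, with a median of 1.34 and a lowest value of -1.15. These genes lie around genes picked for the same rise and were read in the same libraries, so the counts are a description.

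Zbtb7b and Adamtsl4 stood above all of their neighbours, at 3.68 against 2.299 to 3.19 over 10 neighbours and at 3.62 against 2.79 to 3.32 over 3 neighbours. The named genes were picked for this rise, so nothing is read from their standing above neighbours. Pkn3 was above 5 of its 6 neighbours and below Zdhhc12 (3.46), a palmitoyltransferase gene whose end overlaps its own. Tnpo2 was above 7 of 11, Prss36 above 3 of 9 and Ccdc71 above 3 of 8. Among the flanking genes were Dcst2 and Lenep for Zbtb7b (2.67 and 2.299), Mcl1 and Ecm1 for Adamtsl4 (3.32 and 2.79), and Set and Zdhhc12 for Pkn3 (2.89 and 3.46). They also included Prss8 for Prss36 (2.80), Trir and Fbxw9 for Tnpo2 (2.79 and 3.18), and Klhdc8b and Lamb2 for Ccdc71 (2.73 and 3.14). On 1 side of Prss36 and of Tnpo2 the change was under 1 at several genes within 500 kb, down to 0.29 (Ahsp) and 0.053 (Cks1brt). Dcst2 shares 1 of the 19 bins of Zbtb7b, Zdhhc12 shares 2 of the 15 of Pkn3, Klhdc8b shares 2 of the 8 of Ccdc71, and the non-coding genes Gm15417 and A230103J11Rik share 7 bins of Zbtb7b and 6 of Tnpo2, so part of those values is the same reads. There were 6 (Pkn3) to 11 (Tnpo2) other protein-coding genes within 50 kb of 5 of the genes, against a median of 3, and Adamtsl4 had 3, the same as the median. The 47 neighbours lay at a median percentile of 72.0 for naive IGG and 24.4 for naive LMNB1.

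**Figure D5:**
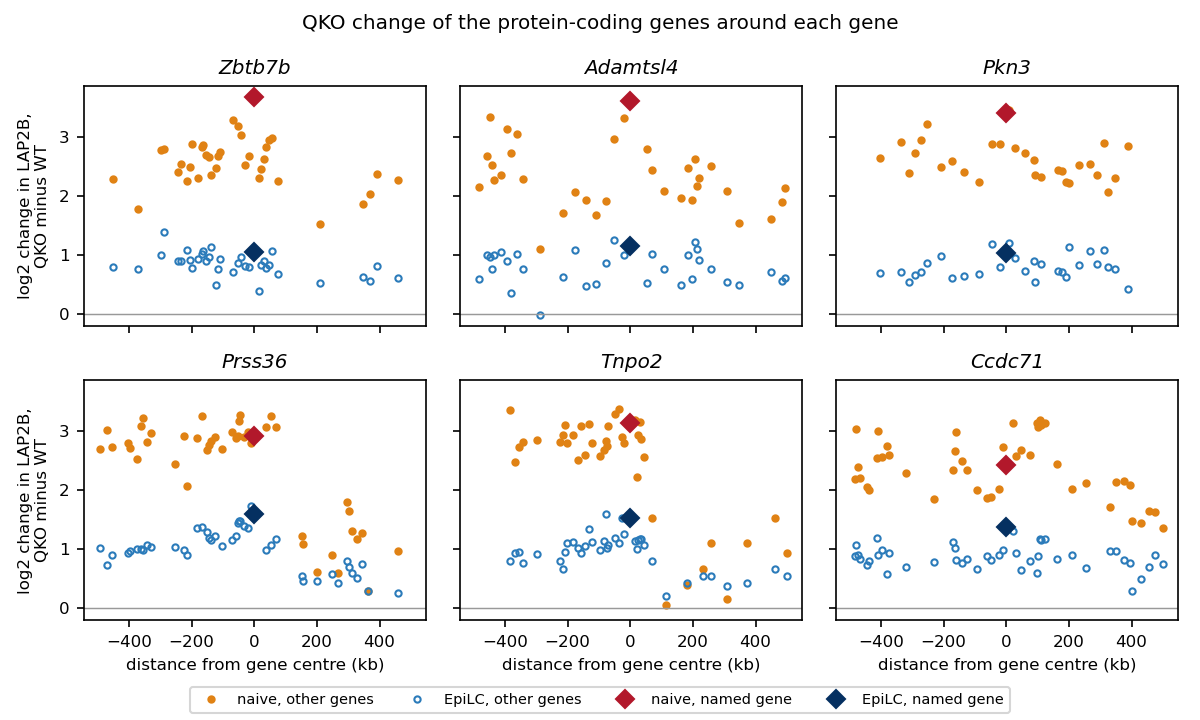
QKO minus WT change in LAP2B (log2, relative scale) of protein-coding genes within 500 kb of each of the 6 genes, by distance between gene centres. Diamonds are the named gene, filled circles other genes in naive cells and open circles other genes in EpiLCs. On this scale naive changes lie above 0 throughout, and drop on one side of Prss36 and of Tnpo2.

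A change of stage was tested where the choice of genes left it open. In LBRKO cells LAP2B at Pkn3 rose between the naive and the EpiLC stage, from 1.56, 2.13 and 1.92 to 3.08, 2.68 and 3.21 (log2 change 0.66, SE 0.16, limma adjusted p = 0.00243). The other 5 genes did not pass the test, at log2 changes of -0.22 (Adamtsl4) to 0.03 (Tnpo2). So 1 of 6 was called higher, where 7.87% of all genes tested and 10.2% of the protein-coding genes were. On the spike-in scale the change at Pkn3 was 0.69 with a limma adjusted p = 0.147, so the call was lost there, while the other settings tried gave adjusted p of 0.000833 to 0.0311. WT cells had a log2 change of 1.27 at Pkn3 between the same stages, which is given without a test because WT libraries took part in the choice.

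LMNB1 in WT cells was higher in EpiLCs at all 6 genes by its mean, with log2 changes of 0.12 (Prss36) to 0.77 (Ccdc71). The median change was -0.04 over all genes tested and 0.02 over protein-coding genes. The share of all genes above 0 is not reported here, so nothing is read from the shared direction. The direction at Prss36 rested on EpiLC replicate 1, at 3.35 against 1.62 and 1.79 in the other EpiLC libraries, and without it the change was -0.20. Only Ccdc71 passed the limma test, barely (adjusted p = 0.0498), with 0.50, 0.955 and 0.870 in the naive and 1.53, 1.07 and 1.5 in the EpiLC libraries. This is 1 of 6, where 6.34% of all genes tested and 12.6% of the protein-coding genes were called higher, so the count is close to the latter share. Before adjustment 5 of the 6 had p under 0.05, but the share of all genes at that threshold is not reported here, so nothing is read from this count. The call at Ccdc71 did not survive every setting: edgeR on recovered reads gave an adjusted p = 0.0515 and the limma test without the low-value filter 0.192. It was also lost in limma without naive replicate 1 or 3 or EpiLC replicate 1 or 3, with adjusted p of 0.0702 to 0.206. At Zbtb7b the LMNB1 libraries read 1.91, 3.03 and 3.51 in naive cells and 4.21, 3.16 and 4.24 in EpiLCs, with overlapping groups.

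IGG in WT cells did not pass the limma test at any of the 6 genes between stages, with log2 changes of -0.33 (Ccdc71) to 0.36 (Pkn3). Over all genes 0.49% were called in either direction. At an unadjusted p under 0.05 only Pkn3 passed in limma, edgeR and DESeq2, and none of these tools called any of the 6 after adjustment. The share of all genes at the unadjusted threshold is not reported here, so nothing is read from the unadjusted result. At Zbtb7b IGG read 7.69, 7.93 and 6.89 in naive cells and 8.68, 6.98 and 6.60 in EpiLCs. On the spike-in scale, which moved the median gene by 1.03, all 6 IGG changes were above 0 (0.66 to 1.37), so the sign at Zbtb7b and Ccdc71 depends on the scale.

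To see whether a protein family moved as a whole, 18 relatives of the 6 genes were followed. They were listed by protein family and not by their own LAP2B values, though with earlier results of these data known. In naive QKO 13 of the 18 rose, 4 fell and 1 did not pass the limma test (median log2 change 1.02), where 33.2% of all genes rose and 42.3% fell. The relatives are protein-coding, and among the protein-coding genes 48.1% rose and 37.1% fell. In naive TKO 11 rose and 3 fell, against 21.8% and 27.5% of all genes and 37.3% and 27.8% of protein-coding genes. In naive LBRKO 11 rose and 3 fell, against 28.9% and 27.6% of all genes and 45.5% and 24.1% of protein-coding genes. In EpiLCs 6 rose and 0 fell in LBRKO (13.3% and 10.1% of all genes, 22.1% and 10% of protein-coding genes). There 8 rose and 2 fell in TKO (8.68% and 9.94% of all genes, 18.7% and 12.4% of protein-coding genes), and 11 rose and 2 fell in QKO (18.3% and 17.8%, 35.3% and 19.1%). The balance turned on the spike-in scale in the lamin mutants, with 2 higher and 5 lower in naive TKO, 5 higher and 7 lower in naive QKO, 0 higher and 1 lower in EpiLC TKO, and 1 higher and 7 lower in EpiLC QKO. Over all 70381 genes tested that scale called 1711 higher and 33328 lower in naive TKO and 7148 and 45964 in naive QKO. In EpiLCs it called 71 and 6559 in TKO and 84 and 39028 in QKO. The median gene was lower on that scale in these mutants, so nothing about the relatives is read from the turn. The balance did not turn in LBRKO, with 11 higher and 1 lower in naive cells and 2 higher and 0 lower in EpiLCs. All genes there gave 19869 higher and 12466 lower in naive cells and 3896 and 2433 in EpiLCs. Prss8 and Prss53 lie within 50 kb of Prss36, so they do not add an independent place. Prss21, Prss22 and Prss27 lie close together on chromosome 17, and Zbtb7a and Adamtsl5 lie in the same part of chromosome 10. The 18 relatives thus stand for fewer than 18 separate places.

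Changes among these relatives went in both directions. Zbtb7a, a paralogue of Zbtb7b that encodes the repressor LRF, rose by 3.48 in naive QKO (SE 0.18, limma adjusted p = 1.26e-23), while Zbtb7c rose by 0.35. Adamtsl5 rose by 3.07 and Adamtsl3 fell by 1.41 (SE 0.09, limma adjusted p = 3.75e-20). Pkn2 fell by 1.06. Prss8, the serine protease gene next to Prss36, rose by 2.80, and Prss53, a further one within 50 kb and with other genes between, by 2.92. Tnpo1, which encodes a second transportin, rose by 1.74, and Prss27, also a serine protease gene, by 1.72. Ccdc71l fell by 1.48. With spike-in scaling the naive QKO changes turned from above to below 0 at Zbtb7c, Adamtsl2, Prss21, Prss22 and Tnpo3, which had risen on the relative scale, and at Thsd4, which had not passed the test there (0.19 on the relative and -1.05 on the spike-in scale). The 4 relatives that fell lay at the 63.3rd (Adamtsl3) to 96.9th (Pkn2) LMNB1 percentile per bin in naive WT, whereas among those that rose Adamtsl2 lay at the 4.51st, Zbtb7a at the 16.6th and Tnpo1 at the 31.7th. Of the 4 that fell, Pkn2, Adamtsl3 and Adamtsl1 measured 91103, 279014 and 914214 bases and Ccdc71l 4240 bases, and those that rose measured 4407 (Prss8) to 328796 bases (Zbtb7c). The part of length was not tested.

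Over the 24 LAP2B libraries the log2 values of the 15 pairs correlated with Pearson's r of 0.833 to 0.976, with a median of 0.928, a description in which the points share libraries, genotypes and depth. High values follow from the choice of the genes, since most of these libraries took part in it. The protein-coding genes most like each of them by this measure, at least 1 Mb away and with at least 100 reads on average, were also of high r. They were Gm50318 (0.991) and Fbrsl1 (0.990) for Zbtb7b, Cxxc5 (0.982) and Gatad2a (0.980) for Adamtsl4, and Arhgef1 (0.983) for Pkn3. For Prss36 they were Ppp1r16a and Farsa (0.982 each), for Tnpo2 Tulp2 (0.991) and Slc25a44 (0.989), and for Ccdc71 Ppil2 (0.955) and Lrp1 (0.953). Farsa lies within 500 kb of Tnpo2, with a naive QKO change of 2.93, so it is not a place apart from the chosen genes. Ccdc71, which had the fewest reads, had the lowest best match.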

How the data were processed

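CUT&RUN libraries for LAP2B (24), LMNB1 (6) and IGG (6) were analysed, while 2 H3K9me3 samples and the tables of transposable elements were not used here. Per the study's methods and the submitters' processing notes, the authors aligned reads to mm39 and to the yeast genome sacCer3 with Bowtie2 2.3.5.1, used SAMtools 1.10 and deepTools, and scaled coverage by yeast spike-in reads. The deposited gene tables hold signal: for each gene, the sum of scaled values over the 1 kb bins it touches, unlogged. The authors' score columns (modified z scores) hold their own comparisons and were not used.

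Values of a library were divided by those of its median gene. Genes in the lowest 0.1 of mean value were left out, 0.1 of the median was added, and log2 values were fitted with limma 3.58.1 in R 4.3.3, all 8 LAP2B groups together and each other antibody alone, with Benjamini-Hochberg adjustment over the 70381 genes tested and a threshold of 0.05. The deposited values were whole multiples of a library's step within 0.05 of a step at 100% of values, which gave back reads for edgeR 4.0.16 and DESeq2 1.42.0. In edgeR 6347 genes were higher and 6995 lower in LBRKO EpiLCs than in LBRKO naive cells, against 5538 and 7063 in limma. For LMNB1 edgeR called 4850 higher and 4691 lower (limma 4461 and 4986), and for IGG 128 and 383 (limma 51 and 294). The limma step was also run on simulated data to check the code, and no result given here rests on that run.

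Gene coordinates are those of GENCODE transcripts numbered up to 380000 on GRCm39, chosen because genes nested in another gene's bins then exceeded the outer gene's reads in only 0.0956% of pairs. The study's methods name GENCODE M30, which was not used here, and the tables appear to hold genes newer than that release, so coordinates and lengths are inferred. Levels between genes were compared per bin touched. Promoter windows were read from the GRCm39 genome.

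The members and lists were chosen with earlier results of these data known. The 6 genes and, of their 18 relatives, the 6 with the largest absolute change in naive QKO were to be named, with flanking genes and those most alike, of which some are not reported here. Zbtb7c, Pkn2, Adamtsl1 to Adamtsl3, Thsd4 and Ccdc71l were named after their values were seen. Replicate numbers were checked for pairing: over 84 pairs of LAP2B libraries with the same number, deviations from group means correlated at -0.116 to 0.177 (median -0.005), so the numbers do not pair the libraries.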

Additional observations from a re-analysis of the deposited data

How the results depend on the processing

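On the spike-in scale the median change of the 6 genes was 0.87 in naive TKO (1.49 on the relative scale), 2.04 in naive QKO (3.26), 0.37 in EpiLC TKO (0.63) and 0.41 in EpiLC QKO (1.26). With libraries divided by their mean it was 1.81 in naive TKO and 3.52 in naive QKO, DESeq2 gave 3.51 in naive QKO, and a pseudocount of 0.5 of the median gave 1.11 in EpiLC QKO. Leaving out 1 library at a time gave 0.63 (without WT naive replicate 2) to 0.93 in naive LBRKO, 1.39 to 1.58 in naive TKO, 3.14 to 3.41 in naive QKO, 0.12 to 0.22 in EpiLC LBRKO, 0.57 to 0.70 in EpiLC TKO and 1.17 to 1.40 in EpiLC QKO.

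Of the 18 relatives, the spike-in scale called 7 in naive TKO (14 on the relative scale) and 2 in EpiLC LBRKO (6). It called 1 in EpiLC TKO (10) and 8 in EpiLC QKO (13). Among all 70381 genes tested, spike-in calls for EpiLC TKO were 6559 lower against 71 higher. Lower against higher calls were 39028 against 84 for EpiLC QKO, 33328 against 1711 for naive TKO, and 2433 against 3896 for EpiLC LBRKO. Nothing about the relatives is read from their spike-in counts. On the relative scale, leaving out 1 library gave 4 (without WT EpiLC replicate 1) to 11 in EpiLC TKO, with 6 without TKO EpiLC replicate 1. Among relatives that had passed the test on the relative scale, the change turned below 0 on the spike-in scale in naive TKO at Prss21 (-0.0067) and Tnpo3 (-0.34). In naive QKO it did so at Adamtsl2 (-0.11), Prss21 (-0.57), Prss22 (-0.24), Tnpo3 (-0.76) and Zbtb7c (-0.89). In EpiLC QKO those that did so included Adamtsl2 (-0.44), Papln (-0.24), Prss22 (-0.14), Tnpo1 (-0.28), Zbtb7a (-0.012) and Zbtb7c (-0.64). Relatives that had not passed turned as well, among them Thsd4 in naive QKO (-1.05) and EpiLC QKO (-0.70).

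The single LBRKO stage call (Pkn3) became 0 on the spike-in scale. The single LMNB1 stage call (Ccdc71) became 0 with a pseudocount of 0.05, with no filter, with edgeR and with the replicate number as a block, and leaving out 1 library gave 0 to 2 calls. The replicate block, used although the numbers do not pair the libraries, left 14, 14, 17, 5, 10 and 13 relatives called in naive LBRKO, TKO and QKO and EpiLC LBRKO, TKO and QKO, 1 gene in the LBRKO stage contrast and 0 for IGG.

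The median percentile of the 6 genes depended on the unit. For naive LMNB1 it was 26.0 per bin, 58.7 undivided and 19.7 per kb. For naive IGG it was 83.6, 74.4 and 62.3, and for EpiLC IGG 87.3, 77.6 and 66.4. For EpiLC LMNB1 it was 38.9 per bin and 63.6 undivided. Bins taken from all annotated transcripts, an alternative chosen after seeing the data, gave 26.8, 80.0, 35.3 and 87.0 for naive LMNB1, naive IGG, EpiLC LMNB1 and EpiLC IGG. The cause of these differences was not tested.

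Depth limits Ccdc71 most, with as few as 38 reads in a library. WT and TKO are 1 line each and QKO is 1 clone. IGG and LMNB1 were mapped in WT only, and 3 libraries against 3 cannot give an exact permutation p below 0.1.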
